A study of Mus musculus with 8 samples.

Results

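The BCL2 family decides whether a cell commits to mitochondrial apoptosis, and its levels are described here in mouse pluripotent cells of 4 kinds. The members are 10 genes listed by symbol, and each was read from the probe sets of an Affymetrix Mouse Gene 2.1 array that are annotated with that single symbol. Of the 10 genes, 9 had such a probe set (11 probe sets in all), out of 22180 genes that have one on the array. Bax had none and was not analysed here. The median of all values was 4.24 on the log2 scale, and a gene was tested where it exceeded this on 2 or more arrays. Bbc3 did so on 1 of 8 arrays and was therefore not tested. The other 8 members exceeded it on every array.

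FGF-ESC are C57BL/6J wild type lines kept with FGF2 and 20% serum replacement on fibroblast feeders. EpiSC, the primed kind of pluripotent cell, had the same strain, genotype, medium and feeders. ESC, the naive kind, were grown with LIF and the kinase inhibitors called 2i, without feeders. Their labels also give 15% fetal serum, which the growth protocol does not name. ICM is uncultured inner cell mass of day 3.5 blastocysts of the same strain, isolated by immunosurgery. The labels trace all the lines, EpiSC too, to day 3.5 embryos and do not say how many lines the arrays stand for. Each group has 2 arrays. The labels do not describe these as separate cultures or litters, so a p-value here covers the spread between the deposited samples alone, and that spread may be technical.

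The proteins fall into 3 classes. Prosurvival members (Bcl2, Bcl2l1, Mcl1) hold the effectors Bax and Bak1 in check at the outer mitochondrial membrane. BH3-only members (Bcl2l11, Bbc3, Pmaip1, Bmf, Bid) answer stress signals by binding the prosurvival proteins or by activating the effectors, which then open the membrane and release cytochrome c. Pluripotent cells are known to be quick to enter this pathway, and much of the control of the family lies at the protein level, which arrays do not measure.

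Marker genes separated the groups along the naive and primed states named above, with 1 addition. The mean level of 15 naive pluripotency markers was 6.99 and 7.41 in FGF-ESC, 4.88 and 5.27 in EpiSC, 7.90 and 7.88 in ESC, and 7.46 and 7.49 in ICM. For 13 primed epiblast markers it was 5.39 and 5.51 in FGF-ESC, 6.70 and 6.87 in EpiSC, 4.92 and 4.92 in ESC, and 4.77 and 4.75 in ICM. The addition is a high level of fibroblast marker genes in FGF-ESC, whose source was not tested. The 22 tested markers had mean levels of 8.65 and 7.37 in FGF-ESC, 5.004 and 5.22 in EpiSC, 4.34 and 4.38 in ESC, and 4.42 and 4.52 in ICM. On both arrays of the group, 22 of these markers exceeded the median of all values in FGF-ESC, 17 in EpiSC, 10 in ESC and 11 in ICM. The mean of 11 trophectoderm markers lay between 4.71 and 4.90 on the 6 arrays of cultured cells, against 6.01 and 5.90 in ICM. That of 10 primitive endoderm markers lay between 4.63 and 5.29, against 6.10 and 6.14 in ICM. Some markers passed the filter through 1 group alone: some fibroblast markers through FGF-ESC, primed markers through EpiSC and endoderm markers through ICM. Such genes had to differ from the other groups, so these levels and counts are a description. In such bulk samples fewer cells of a type and less RNA per cell cannot be told apart. The part of these cells in the results below was not tested, except where a value is given.

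Bak1, an effector that forms the pore in the mitochondrial membrane, set cultured cells apart from the embryo. The 250 bases before its annotated start (GRCm38.p6, chr17:27028628-27028877, minus strand, RefSeq) are shown because it is the member with the widest range of group means, 2.59 on the log2 scale.
Bak1: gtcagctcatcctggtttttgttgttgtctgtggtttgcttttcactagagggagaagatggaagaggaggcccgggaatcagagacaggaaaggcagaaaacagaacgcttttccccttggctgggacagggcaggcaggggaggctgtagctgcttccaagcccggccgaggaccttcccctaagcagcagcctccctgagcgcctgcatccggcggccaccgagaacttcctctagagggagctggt
This window held no match on either strand to GGGCGG, the GC box, which 32.7% of 32851 such windows hold, or to TATAAA, the TATA box, which 12.4% hold. The other motifs searched, the E-box CACGTG (6.02% of windows), the p53 half-site (7.13%) and the FOXO motif GTAAACA (3.17%), were not found in it either. Its probe set (17342676) read 9.01 and 8.78 in FGF-ESC, 8.84 and 8.83 in EpiSC, 8.58 and 8.48 in ESC, and 6.42 and 6.19 in ICM. Every array of cultured cells was above both ICM arrays, with a gap far wider than the difference between arrays of a group, at most 0.23.

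Relative to ICM, Bak1 rose by 2.59 ± 0.14 in FGF-ESC, about 6.03-fold (log2 fold change ± SE, limma, adjusted p = 6.03e-06). The rise over ICM was 2.53 ± 0.14 in EpiSC (adjusted p = 4.99e-06) and 2.22 ± 0.14 in ESC (adjusted p = 1.63e-05). These 3 comparisons share the ICM arrays. Among the cultured groups the differences were small: 0.06 for FGF-ESC over EpiSC, with a 95% interval of -0.25 to 0.37 and arrays that overlap, 0.37 for FGF-ESC over ESC (adjusted p = 0.107) and 0.30 for EpiSC over ESC (adjusted p = 0.171). The fibroblast marker level was 4.34 and 4.38 in ESC, against 4.42 and 4.52 in ICM, and its part in the rises of FGF-ESC and EpiSC was not tested. RNA of ICM was extracted with another column kit than that of the lines, so kit and culture cannot be told apart. Over the 8 arrays the tested genes most like Bak1 by Pearson correlation were Slc38a2, an amino acid transporter (r = 0.997), E2f8, a cell cycle transcription factor (r = 0.994), and Zfp266, a zinc finger gene (r = 0.993). All 3 had their lowest group mean in ICM, at 4.27, 4.40 and 3.71.

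**Figure D1:**
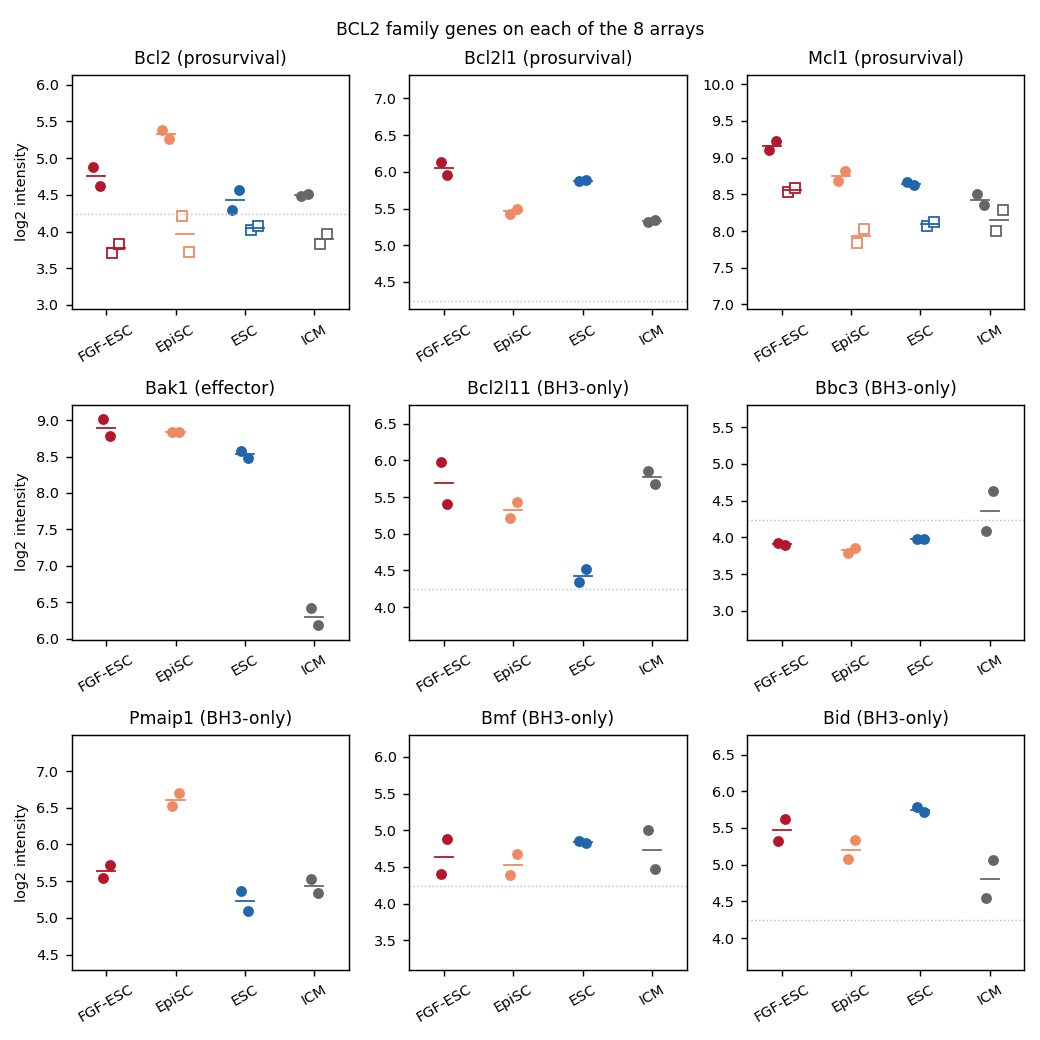
Log2 intensity (vertical axis) of the 9 measured BCL2 family genes on the arrays of FGF-ESC, EpiSC, ESC and ICM (horizontal axis). Filled circles are the arrays on the probe set that stands for the gene, open squares a gene's other probe set, bars the group means, and the dotted line the median of all values, 4.24; Bak1 lies at 8.48 to 9.01 in cultured cells and at 6.19 to 6.42 in ICM, Pmaip1 is highest in EpiSC and Bcl2l11 lowest in ESC.

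Bcl2l11, which encodes the BH3-only activator BIM, was lowest in ESC. BIM protein is a known target of ERK, which marks it for breakdown, and the Bcl2l11 gene is a known target of FOXO transcription factors. The window before its first annotated start (GRCm38.p6, chr2:128125788-128126037, plus strand, RefSeq) is shown because it holds GTAAACA, a FOXO motif, printed in capitals.
Bcl2l11: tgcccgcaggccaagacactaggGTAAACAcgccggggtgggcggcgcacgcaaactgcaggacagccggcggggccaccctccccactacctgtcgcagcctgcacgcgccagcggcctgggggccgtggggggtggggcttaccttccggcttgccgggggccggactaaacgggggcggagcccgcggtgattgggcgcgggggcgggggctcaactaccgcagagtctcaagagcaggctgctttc
The motif begins 227 bases before the start and was found in 3.17% of all windows, searched on both strands. The window before the gene's other start held none. Bcl2l11 (probe set 17375961) read 5.97 and 5.41 in FGF-ESC, 5.21 and 5.43 in EpiSC, 4.34 and 4.52 in ESC, and 5.85 and 5.68 in ICM. Both ESC arrays lay below all others, while the arrays of FGF-ESC overlapped with those of EpiSC and ICM.

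In FGF-ESC, Bcl2l11 rose by 1.26 ± 0.19 over ESC, about 2.39-fold (adjusted p = 0.00528). In ESC it fell below ICM, with a log2 fold change of -1.34 ± 0.19 (adjusted p = 0.00118). EpiSC was 0.89 ± 0.19 above ESC (adjusted p = 0.0142), short of the 2-fold minimum that a call requires. The difference of FGF-ESC and ICM was -0.08, with an interval of -0.52 to 0.37, and that of EpiSC and ICM -0.45 (adjusted p = 0.103). The 2 FGF-ESC arrays differed by 0.56, and the higher one, replicate 1, also had the higher fibroblast level. Without it the rise over ESC was 0.98 (adjusted p = 0.00767), just under the fold minimum, and without ESC replicate 1 it was 1.17 (adjusted p = 0.0664).

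Pmaip1, which encodes the BH3-only protein NOXA, a binder of MCL1 and a p53 target, was highest in EpiSC. Its probe set (17351414) read 5.54 and 5.72 in FGF-ESC, 6.53 and 6.70 in EpiSC, 5.37 and 5.09 in ESC, and 5.53 and 5.34 in ICM. Both EpiSC arrays were above every other array, and the next highest group, FGF-ESC, was 0.98 lower. Pmaip1 rose in EpiSC by 1.38 ± 0.15 over ESC, about 2.61-fold (adjusted p = 0.000436), and by 1.18 ± 0.15 over ICM (adjusted p = 0.000422). For FGF-ESC over EpiSC the value was -0.98 ± 0.15 (adjusted p = 0.00302), which missed only the fold minimum and passed it after quantile normalization (-1.01), without FGF-ESC replicate 2 (-1.07) and without EpiSC replicate 1 (-1.06). FGF-ESC and EpiSC share the medium and the feeders. The differences of FGF-ESC from ESC (0.40, adjusted p = 0.106) and from ICM (0.20, adjusted p = 0.338) missed the threshold.

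Bid and Bmf varied less. Bid, which caspase-8 cleaves to link death receptors to mitochondria, read 5.32 and 5.62 in FGF-ESC, 5.08 and 5.33 in EpiSC, 5.79 and 5.71 in ESC, and 4.55 and 5.07 in ICM. ESC was highest and ICM lowest, and the ICM arrays lay 0.52 apart. Bid was 0.94 ± 0.19 higher in ESC than in ICM (adjusted p = 0.00691) and 0.66 ± 0.19 higher in FGF-ESC than in ICM (adjusted p = 0.0286). Both were under the fold minimum, which the first passed without ICM replicate 2 (1.21). Under the alternatives they fell as low as 0.68 and 0.40. Neither kept an adjusted p under 0.05 under every alternative. Bmf, whose protein is tethered to actin motor complexes until stress frees it, had group means from 4.53 to 4.84. In 5 of its 6 comparisons the arrays overlapped, and adjusted p ran from 0.399 to 0.795. For EpiSC over ESC, where they did not overlap, the interval ran from -0.81 to 0.19, so Bmf is not shown to be level. Bbc3, which encodes PUMA, read 3.92 and 3.89 in FGF-ESC, 3.79 and 3.86 in EpiSC, 3.98 and 3.98 in ESC, and 4.08 and 4.63 in ICM. Apart from 1 ICM array it was below the median of all values.

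The prosurvival genes differed in which group was highest, and none of their differences reached 2-fold. Bcl2, the founding member, is known for its action in lymphocytes and neurons. The window before its annotated start (GRCm38.p6, chr1:106714291-106714540, minus strand, RefSeq) contrasts with that of Bak1: it holds 7 matches to the GC box or its reverse complement, in capitals.
Bcl2: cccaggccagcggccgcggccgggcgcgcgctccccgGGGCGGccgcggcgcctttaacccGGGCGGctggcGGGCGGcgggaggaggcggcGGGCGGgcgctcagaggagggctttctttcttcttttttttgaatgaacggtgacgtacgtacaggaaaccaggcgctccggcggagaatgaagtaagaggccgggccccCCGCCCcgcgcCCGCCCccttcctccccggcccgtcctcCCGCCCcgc
On its brighter probe set (17226043) Bcl2 read 4.88 and 4.62 in FGF-ESC, 5.38 and 5.27 in EpiSC, 4.29 and 4.57 in ESC, and 4.48 and 4.51 in ICM. EpiSC was above all others without overlap, and ESC and ICM overlapped. Bcl2 was 0.89 ± 0.14 higher in EpiSC than in ESC (adjusted p = 0.00352) and 0.82 ± 0.14 higher in EpiSC than in ICM (adjusted p = 0.00248). FGF-ESC stood 0.57 ± 0.14 below EpiSC (-0.57, adjusted p = 0.0272). Of these differences, only that of EpiSC from ICM kept an adjusted p under 0.05 under every alternative. The other probe set of Bcl2 (17216395) was under the median of all values on all arrays, at 3.70 to 4.21, and showed no such order: EpiSC averaged 3.96 there and ESC 4.05.

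Bcl2l1, which encodes BCL-XL, had the opposite order for the primed cells. It read 6.14 and 5.96 in FGF-ESC, 5.43 and 5.50 in EpiSC, 5.87 and 5.88 in ESC, and 5.32 and 5.34 in ICM. No groups overlapped, though EpiSC and ICM were only 0.13 apart (adjusted p = 0.418), and FGF-ESC and ESC 0.17 apart (adjusted p = 0.358). Bcl2l1 was 0.59 ± 0.12 higher in FGF-ESC than in EpiSC (adjusted p = 0.0102) and 0.72 ± 0.12 higher in FGF-ESC than in ICM (adjusted p = 0.00188). It was 0.55 ± 0.12 higher in ESC than in ICM (adjusted p = 0.00799), and the value for EpiSC over ESC was -0.42 ± 0.12 (adjusted p = 0.0404). Only the difference of FGF-ESC from ICM kept an adjusted p under 0.05 under every alternative. Bcl2 was thus highest, and Bcl2l1 second lowest, in EpiSC.

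Mcl1, a short-lived prosurvival protein that mouse embryos need around implantation, was highest in FGF-ESC. On the probe set that stands for it (17407826) it read 9.11 and 9.22 in FGF-ESC, 8.68 and 8.82 in EpiSC, 8.67 and 8.62 in ESC, and 8.50 and 8.35 in ICM. FGF-ESC was 0.42 ± 0.12 above EpiSC (adjusted p = 0.0471), 0.52 ± 0.12 above ESC (adjusted p = 0.0269) and 0.74 ± 0.12 above ICM (adjusted p = 0.00208). Of these differences, only that from ICM kept an adjusted p under 0.05 under every alternative. On the other probe set (17400418) the values were 8.53 and 8.59 in FGF-ESC, 7.84 and 8.03 in EpiSC, 8.07 and 8.13 in ESC, and 8.0025 and 8.29 in ICM, so FGF-ESC was again above all others without overlap. There its differences were 0.62 from EpiSC (adjusted p = 0.0156), 0.46 from ESC (adjusted p = 0.0567) and 0.41 from ICM (adjusted p = 0.0451). The order of EpiSC, ESC and ICM differed between the probe sets. The part of the high fibroblast marker level of FGF-ESC in these differences was not tested.

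**Figure D2:**
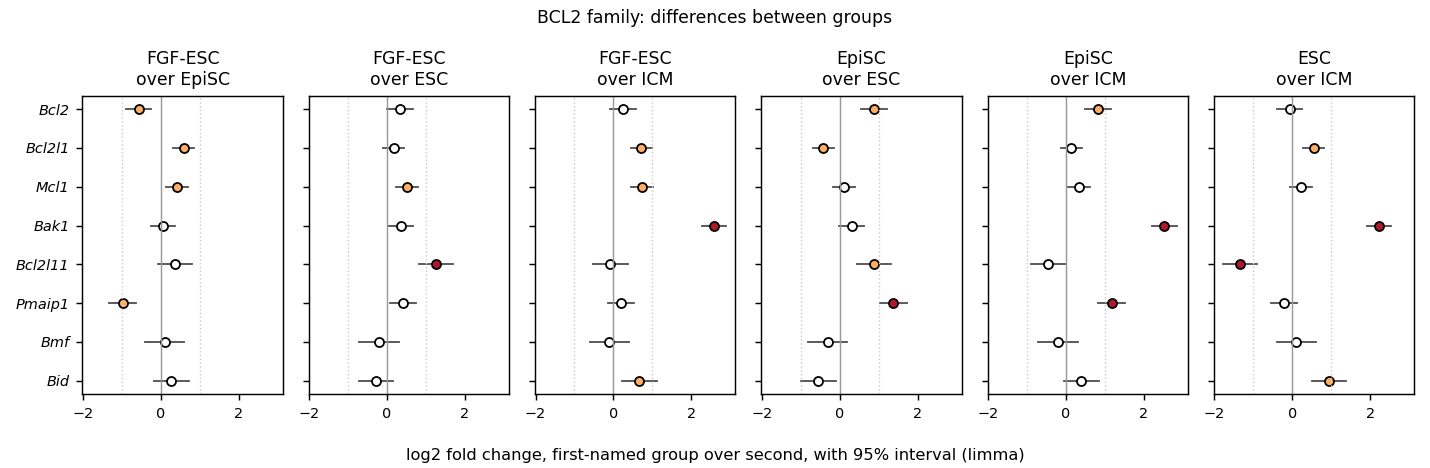
Log2 fold changes (horizontal axis) of the 8 tested members (rows) in the 6 comparisons (panels), each the first-named group over the second, with 95% intervals from limma. Red points passed the adjusted p of 0.05 and the fold minimum of 1 on the log2 scale (dotted lines), orange points the adjusted p alone and white points neither; the 3 largest values are those of Bak1 over ICM, 2.22 to 2.59.

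The members' counts are given beside the share of all tested genes that met the same rule. A call here needs both an adjusted p under 0.05 and a change of 1 or more on the log2 scale. It was met by 0 of 8 tested members for FGF-ESC over EpiSC, where limma called 7.28% of 13597 tested genes. In that comparison 4 of the 8 members had an adjusted p under 0.05 without reaching the fold minimum (Bcl2, Bcl2l1, Mcl1 and Pmaip1). With or without that minimum, 19.8% of all genes had such a p. For FGF-ESC over ESC it was 1 of 8 (Bcl2l11), against 6.21% of all genes, and for FGF-ESC over ICM 1 of 8 (Bak1), against 14.8%. EpiSC over ESC had 1 of 8 (Pmaip1), against 7.36%, EpiSC over ICM 2 of 8 (Bak1 and Pmaip1), against 15.3%, and ESC over ICM 2 of 8 (Bak1 up and Bcl2l11 down), against 11.4%. By the adjusted p alone, 4 of 8 members passed for FGF-ESC over EpiSC (19.8% of all genes), 2 for FGF-ESC over ESC (15.3%), 4 for FGF-ESC over ICM (36.7%), 4 for EpiSC over ESC (19%), 3 for EpiSC over ICM (38.4%) and 4 for ESC over ICM (33%). Median log2 fold changes of the 8 members ran from 0.16 to 0.46 over the comparisons, beside -0.06 to 0.02 for all tested genes. With 8 genes of opposed function, nothing particular to the family is read from these counts.

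Relatives outside the list mostly stayed under the threshold, which 6.21% to 15.3% of all tested genes passed, depending on the comparison. Of 7 tested effector and BH3-only relatives, 1 passed, Bcl2l14, a BCL2-like gene. It read 3.38 and 3.497 in FGF-ESC, 3.06 and 3.24 in EpiSC, 3.68 and 3.77 in ESC, and 5.13 and 4.94 in ICM, so that only the ICM arrays were over the median of all values. It passed the filter through ICM alone. A gene that enters testing through 1 group has to differ from the others, so its calls against ICM are a description and their size is not given. Bcl2l2, the only other prosurvival gene tested, had 0 calls in the 6 comparisons.

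Downstream of the family, 16 genes of the apoptosome, caspases and IAP proteins were tested. For FGF-ESC over ESC 3 rose and 0 fell, with a list median of -0.13 and 6.21% of all tested genes called. For FGF-ESC over EpiSC 2 rose and 0 fell (median -0.14, 7.28% of all genes). Over ICM, 2 rose and 1 fell in FGF-ESC (median -0.14, 14.8%). EpiSC over ESC had 1 and 0 (median -0.04, 7.36%). Over ICM, EpiSC had 1 and 2 (median -0.33, 15.3%) and ESC 0 and 2 (median -0.14, 11.4%). These counts for FGF-ESC were the same without FGF-ESC replicate 1.

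Casp8, the initiator caspase that cleaves BID, read 6.83 and 6.02 in FGF-ESC, 4.84 and 5.07 in EpiSC, 3.76 and 3.84 in ESC, and 3.32 and 3.30 in ICM. The groups did not overlap, and ESC and ICM were below the median of all values. Casp8 rose in FGF-ESC by 1.47 ± 0.23 over EpiSC (adjusted p = 0.00362), by 2.63 ± 0.23 over ESC (adjusted p = 0.000438) and by 3.11 ± 0.23 over ICM (adjusted p = 3.44e-05). On the 6 arrays of cultured cells Casp8 and the fibroblast level ran in the same order, and the part of the cells behind those markers was not tested. The rise of Casp8 in EpiSC over ESC, 1.15 ± 0.23 (adjusted p = 0.0103), was not called without EpiSC replicate 2 (adjusted p = 0.0798) or either ESC array (0.0843 and 0.0656), and held under its other alternatives. Casp6, an executioner caspase, read 5.75 and 5.67 in FGF-ESC, 5.30 and 5.46 in EpiSC, 4.59 and 4.20 in ESC, and 7.74 and 7.08 in ICM. Like Bcl2l11, it was lowest in ESC. Casp6 fell in ESC relative to ICM, with -3.01 ± 0.22 (adjusted p = 3.9e-05), and rose in FGF-ESC over ESC by 1.32 ± 0.22 (adjusted p = 0.00744, and 0.0775 without ESC replicate 2).

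Cyct, the testis form of cytochrome c, read 8.61 and 9.18 in FGF-ESC, 3.997 and 5.10 in EpiSC, 5.37 and 5.23 in ESC, and 8.004 and 7.38 in ICM. FGF-ESC and ICM were high and the other groups low, without overlap between them. It rose in FGF-ESC by 4.34 ± 0.36 over EpiSC (adjusted p = 0.000195) and by 3.59 ± 0.36 over ESC (adjusted p = 0.000758), more than any member of the family changed. Its rise over ICM, 1.202 (adjusted p = 0.0311), was not called with array weights (0.0971) or without FGF-ESC replicate 2 (0.116), ICM replicate 2 (0.176) or either ESC array (0.0577).

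**Figure D3:**
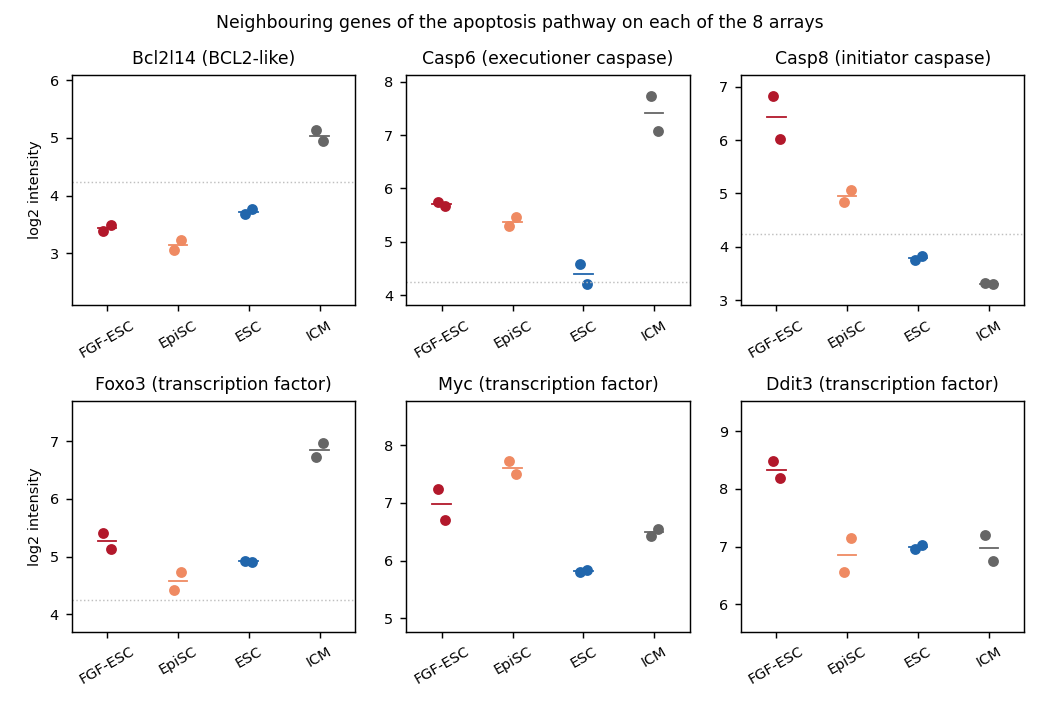
Log2 intensity (vertical axis) of 6 genes next to the BCL2 family in the apoptosis pathway, on the arrays of FGF-ESC, EpiSC, ESC and ICM (horizontal axis). Circles are arrays, bars group means and the dotted line the median of all values, 4.24; Bcl2l14, Casp6 and Foxo3 are highest in ICM, Casp8 and Ddit3 in FGF-ESC and Myc in EpiSC.

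Among 19 tested regulators of the family, those with calls were transcription factors and the p53 antagonist Mdm2. Foxo3, a FOXO factor known to act on Bcl2l11, read 5.42 and 5.14 in FGF-ESC, 4.43 and 4.73 in EpiSC, 4.93 and 4.91 in ESC, and 6.73 and 6.97 in ICM. Both ICM arrays were above all others, and the EpiSC arrays were the lowest. Foxo3 fell in all lines relative to ICM, with -1.57 ± 0.16 in FGF-ESC, -2.27 ± 0.16 in EpiSC and -1.93 ± 0.16 in ESC (adjusted p = 0.00016, 1.76e-05 and 6.81e-05). Ddit3, the stress factor CHOP, read 8.49 and 8.19 in FGF-ESC, 6.57 and 7.15 in EpiSC, 6.97 and 7.03 in ESC, and 7.19 and 6.74 in ICM. It rose in FGF-ESC by 1.48 ± 0.22 over EpiSC (adjusted p = 0.0031), by 1.34 ± 0.22 over ESC (adjusted p = 0.00749) and by 1.37 ± 0.22 over ICM (adjusted p = 0.002), of which the second was lost without ESC replicate 1 (0.0761) or ESC replicate 2 (0.0624). Myc was highest in EpiSC, with a mean of 7.61 there and 5.82 in ESC, a rise of 1.79 ± 0.18 (adjusted p = 0.000335).

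Stat3, which carries the LIF signal and is known to act on Mcl1 and Bcl2l1, averaged 7.86 in FGF-ESC, 6.33 in EpiSC, 7.47 in ESC and 7.89 in ICM. It rose in FGF-ESC over EpiSC by 1.54 ± 0.27 (adjusted p = 0.00561, and 0.0511 in a fit of these groups alone). Of all tested genes, 7.28% were called for FGF-ESC over EpiSC, 6.21% for FGF-ESC over ESC and 7.36% for EpiSC over ESC. Over ICM the shares were 14.8% for FGF-ESC, 15.3% for EpiSC and 11.4% for ESC. The regulator list as a whole had 3 rises and 0 falls for FGF-ESC over EpiSC (median 0.10). For FGF-ESC over ESC it had 3 and 0 (median 0.12). Without FGF-ESC replicate 1 these were 2 and 1 rises. Against ICM the counts of rises and falls were 2 and 1 for FGF-ESC (1 and 1 without FGF-ESC replicate 1), 1 and 2 for EpiSC and 0 and 1 for ESC, and EpiSC over ESC had 1 and 1.

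The genes of the death receptor pathway rose in FGF-ESC only in part. Of 8 tested genes, 2 rose over EpiSC, 5 over ESC and 5 over ICM, and 0 fell. Without FGF-ESC replicate 1 the rises numbered 2, 3 and 3. Fas, counted in each of these rises, read 5.58 and 4.73 in FGF-ESC and was below the median of all values in every other group. It passed the filter through FGF-ESC alone and so had to differ from the others, and its calls are a description. Of 14 p53 targets outside the family, 6 rose over EpiSC, 5 over ESC and 4 over ICM, with 1 fall, Sesn1 relative to ICM. Mdm2 is on this list and on that of the regulators. Those rises numbered 2, 3 and 1 without FGF-ESC replicate 1. Of all tested genes, 7.28% were called for FGF-ESC over EpiSC, 6.21% over ESC and 14.8% over ICM, rises and falls together. Pmaip1, a p53 target within the family, passed for FGF-ESC over none of EpiSC, ESC and ICM, and its level was lower in FGF-ESC than in EpiSC. From this 1 gene nothing is read about p53 targets within the family. Bax and Bbc3 were not tested. Fibroblast markers were higher in FGF-ESC by medians of 2.88 over EpiSC, 3.38 over ESC and 3.28 over ICM beside both lists. Without FGF-ESC replicate 1 these medians were 1.798, 2.53 and 2.63, and the markers' part was not tested. Some of the markers passed the filter through FGF-ESC alone, so these medians are a description.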

How the data were processed

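Transcripts were measured on 8 Affymetrix Mouse Gene 2.1 arrays, 2 for each of 4 groups taken from the sample titles. The values are the authors' deposited log2 intensities per probe set, for which the submitters' processing notes name Affymetrix Expression Console 1.3.1. How probes were summarised and background was corrected is not given in the sources used here. They ran from 1.63 to 12.22, from which the log2 scale was read, and array medians from 4.16 to 4.28. No further normalization was applied. Of 41345 probe sets, 23521 had 1 gene in the platform annotation, 1814 several and 16010 none. The probe set with the highest mean stood for a gene. Tests covered the 13597 genes that exceeded the overall median, 4.24, on 2 or more arrays.

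A means model over all 8 arrays was fitted with limma 3.58.1 in R 4.3.3 (eBayes, 4 residual degrees of freedom, Benjamini-Hochberg adjustment within each comparison). All SEs, intervals and adjusted p-values are limma's, and the SE pools all groups, so it can understate the spread of FGF-ESC (pooled SD 0.279, against 0.151 in EpiSC, 0.124 in ESC and 0.208 in ICM). The number of arrays limits the precision. The code was tested on simulated data. Sequences are the 250 bases before each start in RefSeq's table, which held 9 of the 10 members. Members, gene lists and tests were chosen with earlier results of these data known. Named are all members, up to 3 called genes of a companion list per comparison, and the 3 genes most like the member with the widest range; levels of called genes are given where they bear on a member. Alternatives were another scaling, other filters, probe set rules, moderation, array weights, a replicate block and leaving out each array.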

Additional observations from a re-analysis of the deposited data

How the results depend on the processing

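The 48 differences of tested members were each recomputed under 17 alternatives (18 for Mcl1), which gave 822 values. Of these, 785 kept direction and side of the threshold. That threshold includes the fold minimum, so a difference below the minimum could lose its adjusted p under 0.05 and still count as kept. Some differences of Bcl2, Bcl2l1, Mcl1, Bcl2l11 and Bid did so. The 7 calls of members held throughout, except that of Bcl2l11 for FGF-ESC over ESC, whose 2 losses are in the report. Without a fold minimum the members passing numbered 4, 2, 4, 4, 3 and 4, and the genes 2692, 2087, 4984, 2584, 5219 and 4488, for FGF-ESC over EpiSC, ESC and ICM, EpiSC over ESC and ICM, and ESC over ICM. After quantile normalization 1 member, Pmaip1, passed for FGF-ESC over EpiSC. In a fit of FGF-ESC and ESC alone 526 genes passed, against 844. Leaving out single arrays gave 0 to 1 members and 747 to 1287 genes for FGF-ESC over EpiSC, 0 to 1 and 374 to 1287 for FGF-ESC over ESC, 1 to 1 and 1822 to 2270 for FGF-ESC over ICM, 1 to 2 and 848 to 1032 for EpiSC over ESC, 2 to 2 and 2009 to 2099 for EpiSC over ICM, and 2 to 3 and 1410 to 1584 for ESC over ICM. A group left with 1 array is assumed to vary like the others. For FGF-ESC over ESC the lowest count, 374, came without ESC replicate 1, with 400 without ESC replicate 2 and 1287 without FGF-ESC replicate 2. The added members were Pmaip1 for FGF-ESC over EpiSC, Bcl2 for EpiSC over ESC (1.03 without ESC replicate 2) and Bid for ESC over ICM.

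Direction reversed in 16 cases over 11 differences, all uncalled, and the cause was not tested. Leaving out single arrays, Bak1 for FGF-ESC over EpiSC ranged from -0.050 (without FGF-ESC replicate 1) to 0.177. Bmf ranged from -0.135 to 0.341 for FGF-ESC over EpiSC, from -0.443 to 0.033 for FGF-ESC over ESC, from -0.372 to 0.169 for FGF-ESC over ICM, from -0.475 to 0.066 for EpiSC over ICM and from -0.167 to 0.374 for ESC over ICM. Bcl2l11 for FGF-ESC over ICM ranged from -0.359 to 0.205 (without FGF-ESC replicate 2). Bcl2 for ESC over ICM ranged from -0.209 to 0.070 (without ESC replicate 1) and was 0.044 with the mean of its probe sets. Mcl1 for EpiSC over ESC was -0.030 with the mean of its probe sets, and on its other probe set, an alternative chosen after seeing the data, -0.16 there, -0.21 for EpiSC over ICM and -0.048 for ESC over ICM.

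Replicate numbers did not pair the samples: deviations from group means correlated at -0.09 to 0.04 over genes. With the replicate block the members passing were 0, 1, 1, 1, 2 and 2 in the order above, and the genes 974, 828, 2011, 998, 2071 and 1545. It changed 0 calls of members. Of 56 calls of companion genes, 36 held under every alternative. Dim probe sets, such as those of Bbc3 and the second of Bcl2, limit what can be said of those genes.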
